A study of Mus musculus with 12 samples.

Results

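Angiocrine factors are proteins that endothelial cells secrete to act on neighbouring cells. The 10 genes described here were grouped as secreted growth factors of this kind: Stc1, Edn1, Bmp2, Bmp4, Bmp6, Gdf10, Inhba, Igf1, Fgf1 and Kitl. Which cells of the heart made each of them was not tested. All probes that the platform annotation assigns to these symbols were taken, which gave 16 probes for the 10 genes among 19057 symbols on the array. The set was selected with results of these data known, so the members' own differences between groups are given below as a description and not as a test. Of the 10 genes, 7 were measured, meaning that at least 1 probe had a detection p under 0.05 on at least 2 arrays, among 14240 genes measured in all. Bmp2, Bmp6 and Kitl were not.

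Illumina bead arrays were hybridised with total heart RNA from C57Bl/6J mice, all of them adult males, with 1 array for each of 12 hearts. In the deleted mice, Cdh5-Cre-ERT2; Flt1 flox/flox with tamoxifen, the gene of VEGFR1 was removed in endothelial cells, since the Cdh5 promoter drives the Cre there; Flt1 of other cell types is left. An adeno-associated virus given intraperitoneally carried VEGF-B (AAV-VEGF-B) or a control sequence (AAV-Scramble), so every mouse received a virus. The groups were WT_Scramble (wild-type, AAV-Scramble, n = 3), WT_VEGFB (wild-type, AAV-VEGF-B, n = 2), VEGFR1del_Scramble (deleted, AAV-Scramble, n = 3) and VEGFR1del_VEGFB (deleted, AAV-VEGF-B, n = 4). The labels do not say whether the wild-type mice carried the Cre or the floxed alleles or received tamoxifen, nor that the hearts of a group came from separate litters, so the spread within a group is that between these samples.

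VEGF-B is a ligand of VEGFR1, a receptor that also takes up VEGF-A, and the heart's endothelium is reached by VEGF-A through VEGFR2 as well. Endothelial growth factors fall into a few families. The bone morphogenetic proteins, Gdf10 and the activins, which are dimers of inhibin beta subunits such as the one encoded by Inhba, belong to the TGF-beta superfamily and signal through pairs of serine/threonine kinase receptors to SMAD proteins. Endothelin-1 acts through G protein-coupled receptors on muscle and endothelium, IGF-1, FGF-1 and KIT ligand act through receptor tyrosine kinases, and stanniocalcin-1 is a glycoprotein hormone.

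The proximal promoters are shown because 2 of the members called with VEGF-B in wild-type hearts, Gdf10 and Inhba, moved in opposite directions and differ in base composition there, and Edn1 is shown beside them as a member with no call. Of the 10 genes, 7 had an entry in the RefSeq promoter table (build GRCm38.p6), and Stc1, Bmp2 and Fgf1 had none. The 250 bases before each start are printed 5′ to 3′ on the plus strand, the strand of all 3 genes, at chr14:33923337-33923586 (Gdf10), chr13:16011601-16011850 (Inhba) and chr13:42301226-42301475 (Edn1). Capitals mark GGGCGG (the GC box), TATAAA (the TATA box) and CACCC (the element of KLF factors), each searched on both strands.
Gdf10: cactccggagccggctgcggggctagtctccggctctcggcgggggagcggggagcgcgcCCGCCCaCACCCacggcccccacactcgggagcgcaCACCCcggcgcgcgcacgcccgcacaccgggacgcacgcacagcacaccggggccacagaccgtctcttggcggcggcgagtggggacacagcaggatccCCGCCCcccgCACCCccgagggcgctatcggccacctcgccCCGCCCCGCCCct
Inhba: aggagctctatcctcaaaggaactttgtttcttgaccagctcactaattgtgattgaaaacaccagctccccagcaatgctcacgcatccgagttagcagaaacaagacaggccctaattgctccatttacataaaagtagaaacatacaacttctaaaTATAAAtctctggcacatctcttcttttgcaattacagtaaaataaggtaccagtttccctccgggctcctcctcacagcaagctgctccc
Edn1: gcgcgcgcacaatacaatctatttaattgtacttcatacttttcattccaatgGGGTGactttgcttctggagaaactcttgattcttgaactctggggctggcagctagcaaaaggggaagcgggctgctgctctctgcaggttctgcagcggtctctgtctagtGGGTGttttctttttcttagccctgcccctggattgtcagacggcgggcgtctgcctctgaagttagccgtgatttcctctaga
The Gdf10 stretch was 78.8% G and C and held 4 GC boxes and 3 CACCC elements, with 1 base shared between 2 of the GC boxes nearest the start. The Inhba stretch was 43.2% G and C and held no GC box and no CACCC, and a single TATAAA began 91 bases before the start (position -91). The Edn1 stretch was 50.4% G and C and held 2 CACCC elements. The median over all 32851 promoters in the table was 52.4%, and 32.7% of them held a GC box, 12.4% a TATAAA and 52.0% a CACCC.

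Among the other promoters, those of the 2 remaining bone morphogenetic protein genes with an entry, Bmp4 and Bmp6, each held 1 GC box and 1 CACGTG (the E-box), which 6.0% of all promoters hold. Kitl held 3 GC boxes and a TATAAA 25 bases before the start, and Igf1 held a TGANTCA (the AP-1 element, in 6.7% of promoters). GATAA (the GATA element, in 22.6% of promoters) was in none of the 7 stretches, and TGGGAA (the RBPJ element, in 21.6%) was in those of Kitl and Igf1. These motifs are matches of letters and say nothing of binding. Bmp4 and Igf1, not called in the reported fit, were 63.2% and 52.8% G and C. Bmp6 and Kitl, not measured, were 68.8% and 69.2%. The printed promoters were picked by their calls, and a link of base composition with direction was not tested.

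Each array's median signal lay between 98.7 and 111.5 and 16685 to 18210 of 45281 probes were detected on it. Flt1 (probe ILMN_1227926) read 10.79 to 11.51 on the log2 scale on the wild-type arrays and 8.19 to 9.47 on 6 of the 7 deleted arrays, but 11.56 on the library labelled VEGFR1del_Scramble replicate 3, whose genotype the array therefore does not bear out; the differences that use it are given below with and without it for the members, by gene and by probe, and for the receptors and partners named. Vegfb, the mouse gene of VEGF-B, differed with AAV-VEGF-B by -0.04 in wild-type hearts (limma, adjusted p = 0.921) and by -0.12 in deleted hearts (adjusted p = 0.495; -0.14 without that library). Its probe thus does not bear out the virus label in either genotype, and the labels do not say which VEGF-B sequence the virus carried or whether the probe reads it. The endothelial marker mean, described below, was 9.91 on the doubtful library, 9.86 and 9.78 in WT_VEGFB, and 9.52 and 9.61 on VEGFR1del_Scramble replicates 1 and 2. For Stc1 (7.45) and Esm1 (8.36) that library lay between those 2 groups of arrays. Its virus label is thus open to doubt too, and comparisons with all 12 arrays count it as AAV-Scramble. The authors' normalized values fell into 3 sets normalized separately, of 5, 3 and 4 arrays. The first held WT_Scramble and VEGFR1del_Scramble replicates 1 and 2, the second WT_VEGFB and the library labelled VEGFR1del_Scramble replicate 3, and the third VEGFR1del_VEGFB. No set held both viruses in hearts of the same genotype, or both genotypes with AAV-VEGF-B, so in both VEGF-B comparisons, in the deletion comparison under AAV-VEGF-B and in the interaction the groups and the sets cannot be told apart. The deletion comparison under AAV-Scramble lies within the first set once the doubtful library is left out.

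Stc1, Gdf10 and Inhba were the members that differed with VEGF-B in wild-type hearts. Stc1 and Gdf10 were higher and Inhba was lower, whereas Edn1, Bmp4, Igf1 and Fgf1 were not called. With VEGFR1 deleted, Stc1 alone was called, again higher with VEGF-B. Neither comparison of deleted with wild-type hearts called a member.

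**Figure D1:**
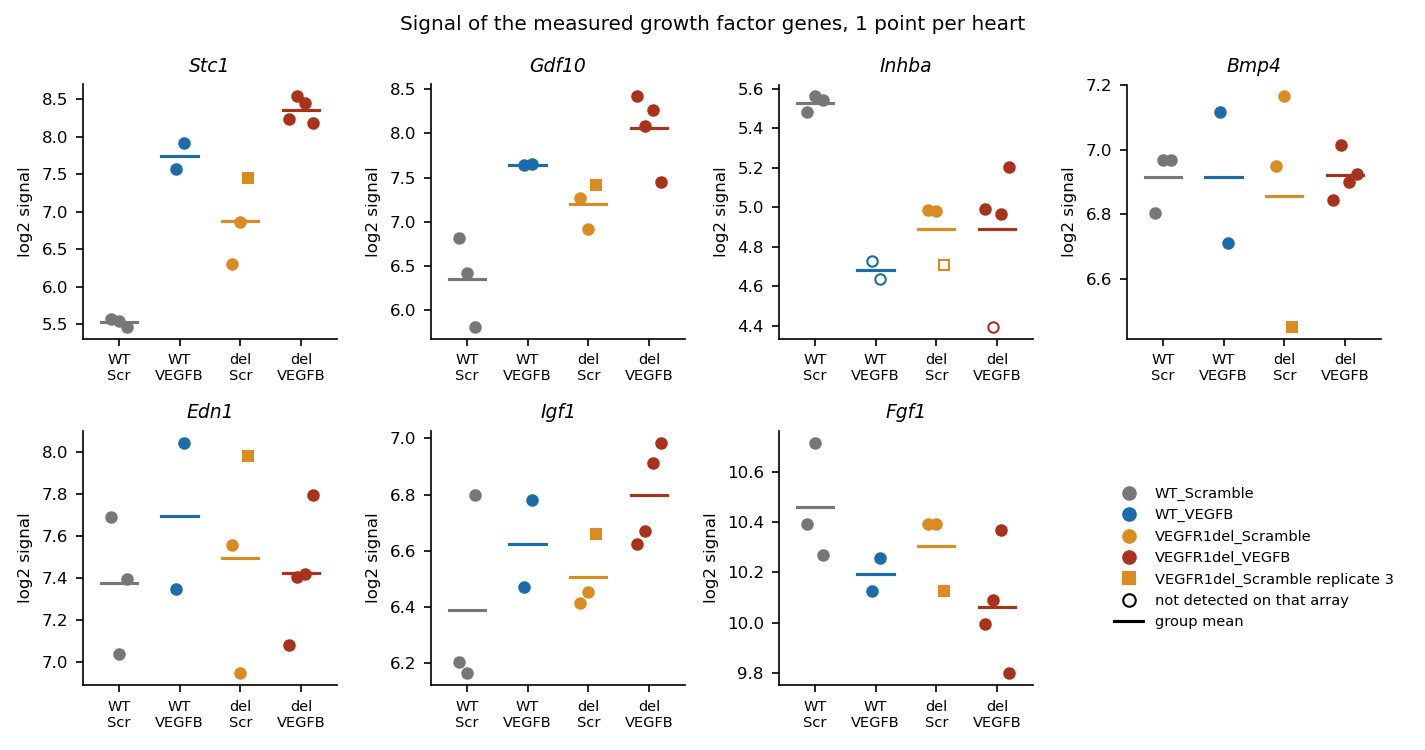
Log2 normalized signal (vertical axes, which do not start at 0) of the 7 measured growth factor genes in each heart, by group (WT, wild-type; del, VEGFR1-deleted; Scr, AAV-Scramble; VEGFB, AAV-VEGF-B); bars are group means, open symbols mark arrays on which the probe was not detected, and the square is the library labelled VEGFR1del_Scramble replicate 3. The 4 groups do not overlap for Stc1 (5.46 to 5.58 in WT_Scramble, 8.18 to 8.54 in VEGFR1del_VEGFB), and they overlap for Edn1 and Bmp4.

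Stc1 encodes stanniocalcin-1, a secreted glycoprotein first known from the calcium regulation of fish. Its signal (probe ILMN_2777319, log2 normalized signal throughout) was 5.58, 5.54 and 5.46 in WT_Scramble, and 7.57 and 7.91 in WT_VEGFB. In the deleted hearts it was 6.30, 6.87 and 7.45 with AAV-Scramble, and 8.23, 8.54, 8.44 and 8.18 with AAV-VEGF-B. Ordered by mean, WT_Scramble was lowest, then VEGFR1del_Scramble, WT_VEGFB and VEGFR1del_VEGFB, and no neighbours in that order overlapped. The closest approach was between the library labelled VEGFR1del_Scramble replicate 3 (7.45) and WT_VEGFB replicate 1 (7.57).

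VEGF-B went with a Stc1 signal higher by 2.21 in wild-type hearts (SE 0.24, 95% interval 1.68 to 2.74), which is 4.64-fold, and by 1.48 in deleted hearts (SE 0.20, interval 1.03 to 1.92), or 2.78-fold. The deletion went with 1.34 more with AAV-Scramble (SE 0.22, interval 0.87 to 1.82) and 0.61 more with AAV-VEGF-B (SE 0.23, interval 0.11 to 1.11). The VEGF-B difference in deleted hearts minus that in wild-type hearts was -0.74 (SE 0.32, interval -1.43 to -0.05, not called over all genes). Without the library labelled VEGFR1del_Scramble replicate 3 the VEGF-B difference in deleted hearts was 1.76, the deletion difference with AAV-Scramble 1.06 and the interaction -0.45. The deletion difference with AAV-VEGF-B does not use that library.

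Both VEGF-B calls of Stc1 held under each of the 12 other processing settings, and that in wild-type hearts was lost with 1 of the 12 arrays left out, WT_VEGFB replicate 2 (2.04). Its size moved with the background: without background correction the difference was 1.20 in wild-type and 1.01 in deleted hearts, and on the authors' deposited values 1.22 and 1.11. The deletion difference with AAV-Scramble sat at the threshold and was not called among genes. It was called under 6 of the 12 settings, in the fit over all probes, and without VEGFR1del_Scramble replicate 1 (1.63). All these calls use the library labelled VEGFR1del_Scramble replicate 3. Without that library the difference (1.06) was called neither among genes nor over all probes. The other Stc1 probe, ILMN_2942344, was detected on no array and lay between 4.27 and 4.49.

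Gdf10, also known as Bmp3b, is a member of the TGF-beta superfamily, and its promoter is the G and C rich stretch printed above. Its signal (ILMN_1249941) was 6.81, 6.42 and 5.81 in WT_Scramble and 7.64 and 7.65 in WT_VEGFB. It was 7.26, 6.92 and 7.41 in VEGFR1del_Scramble and 8.42, 8.09, 8.26 and 7.45 in VEGFR1del_VEGFB. The group means stood in the order found for Stc1, and the 2 VEGF-B groups, next to each other in it, overlapped through VEGFR1del_VEGFB replicate 4.

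With VEGF-B the Gdf10 signal was higher by 1.30 in wild-type hearts (SE 0.29, interval 0.67 to 1.92; 2.46-fold; called) and by 0.86 in deleted hearts (SE 0.24, interval 0.33 to 1.38; not called). It was higher by 0.85 with the deletion under AAV-Scramble (SE 0.26, interval 0.29 to 1.41) and by 0.41 under AAV-VEGF-B (SE 0.27, interval -0.18 to 1.00). The wild-type call was lost without filtering dim probes, with only the 2 groups in the fit, and with 6 of the 12 arrays left out in turn (WT_Scramble replicates 2 and 3, both WT_VEGFB arrays, VEGFR1del_Scramble replicate 1 and VEGFR1del_VEGFB replicate 2; differences of 1.03 to 1.33). The difference in deleted hearts was called under 5 of the 12 other settings, without VEGFR1del_VEGFB replicate 4 (1.06) and without WT_Scramble replicate 3 (0.86), and was 0.96 without the library labelled VEGFR1del_Scramble replicate 3, which also took the deletion difference under AAV-Scramble to 0.74. On the authors' deposited values the wild-type difference was 0.81, and 0.77 without background correction.

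Inhba, the gene of the activin A subunit, was the member called lower with VEGF-B in wild-type hearts, and its promoter is the TATA-containing stretch. Its signal (ILMN_2868220) was 5.48, 5.56 and 5.54 in WT_Scramble, where every array detected it, and 4.73 and 4.64 in WT_VEGFB, where neither did. It was 4.99, 4.98 and 4.71 in VEGFR1del_Scramble and 4.99, 4.39, 4.97 and 5.21 in VEGFR1del_VEGFB, detected on 2 of 3 and 3 of 4 arrays. After normalization WT_Scramble thus stood above all 9 other arrays, and the other 3 groups were near the background.

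Because WT_VEGFB was below detection, the size of the change in wild-type hearts is uncertain. With WT_VEGFB set at the detection floor of 4.83 (measured mean 4.68), Inhba was 1.63-fold lower with VEGF-B, from 5.53. The fitted difference was -0.85 (SE 0.19, interval -1.25 to -0.44, called), and it was -0.43 with an offset of 50. Before normalization the nearest signals of the 2 wild-type groups were 116.9 in WT_Scramble replicate 3 and 116 in WT_VEGFB replicate 1. VEGFR1del_VEGFB replicates 3 and 4 then read 119 and 120.9, above WT_Scramble replicate 3. In deleted hearts the difference with VEGF-B was -0.00 (SE 0.16, interval -0.34 to 0.34), and with AAV-Scramble the deletion went with -0.64 (SE 0.17; not called). Without the library labelled VEGFR1del_Scramble replicate 3 these were -0.10 and -0.55. The interaction was not called over all genes, and no size is given for it, since it rests on the undetected WT_VEGFB group. The wild-type call was lost without background correction (-0.27), on the authors' deposited values (-0.22), without the filter on dim probes, and with 6 of the 12 arrays left out in turn (the 5 compared ones and VEGFR1del_VEGFB replicate 1; -0.88 to -0.80).

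Of the bone morphogenetic proteins proper, which pattern the heart valves and regulate vascular growth, Bmp4 was measured on every array. It was 6.80, 6.97 and 6.97 in WT_Scramble, 7.12 and 6.71 in WT_VEGFB, 6.95, 7.17 and 6.45 in VEGFR1del_Scramble, and 6.84, 7.02, 6.90 and 6.92 in VEGFR1del_VEGFB. All 4 groups overlapped. The VEGF-B difference was 0.00 in wild-type hearts (interval -0.39 to 0.39) and 0.07 in deleted hearts (interval -0.26 to 0.39). The lowest value was that of the library labelled VEGFR1del_Scramble replicate 3, without which the difference in deleted hearts was -0.14.

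Bmp2, whose product drives valve formation, was detected on no array (detection p 0.412 to 0.987). The single Bmp6 probe was detected on 1 array, VEGFR1del_VEGFB replicate 2 (detection value 0.0417), and was 4.33 to 4.90 over the 12. A further Bmp4 probe, ILMN_1235698, was detected on none. Bmp6, known as the endothelial signal for iron in the liver, was therefore at background on the other 11 arrays, as Bmp2 was on all 12.

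Edn1 encodes endothelin-1, the vasoconstrictor peptide of endothelial cells, and its signal varied within groups. It was 7.69, 7.04 and 7.39 in WT_Scramble and 7.35 and 8.04 in WT_VEGFB. It was 7.56, 6.95 and 7.98 in VEGFR1del_Scramble and 7.08, 7.41, 7.42 and 7.79 in VEGFR1del_VEGFB. Every pair of groups overlapped, and VEGFR1del_Scramble alone spanned 6.95 to 7.98. The differences with VEGF-B were 0.32 in wild-type hearts (interval -0.32 to 0.96) and -0.07 in deleted hearts (interval -0.61 to 0.47), and both intervals include 0. The sign turned in deleted hearts without the library labelled VEGFR1del_Scramble replicate 3 (0.17, interval -0.37 to 0.72). With each of the 12 arrays left out in turn, the wild-type difference ran from -0.02 (without WT_VEGFB replicate 2) to 0.67 (without WT_VEGFB replicate 1).

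Igf1, the growth hormone-dependent growth factor also made by cells of the heart, was 6.20, 6.16 and 6.80 in WT_Scramble and 6.47 and 6.78 in WT_VEGFB by probe ILMN_1225565. It was 6.41, 6.45 and 6.66 in VEGFR1del_Scramble and 6.62, 6.67, 6.91 and 6.99 in VEGFR1del_VEGFB. The groups overlapped in all comparisons. With VEGF-B it was higher by 0.24 in wild-type (interval -0.17 to 0.65) and 0.29 in deleted hearts (interval -0.05 to 0.63). The second probe, ILMN_2769884, gave 0.15 and 0.37 (interval of the latter 0.04 to 0.70), and neither probe was called, although ILMN_1225565 was with median scaling in deleted hearts (0.50). Without the library labelled VEGFR1del_Scramble replicate 3 the differences in deleted hearts were 0.37 by ILMN_1225565 and 0.53 by ILMN_2769884, and neither was called.

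Fgf1, an acidic fibroblast growth factor without a classical secretion signal, was lower with VEGF-B by both of its probes, and with all 12 arrays by neither past the threshold. Probe ILMN_2701233 read 10.39, 10.71 and 10.27 in WT_Scramble, 10.13 and 10.26 in WT_VEGFB, 10.39, 10.39 and 10.13 in VEGFR1del_Scramble, and 9.99, 10.09, 10.37 and 9.80 in VEGFR1del_VEGFB. Its VEGF-B differences were -0.27 in wild-type hearts (interval -0.64 to 0.10) and -0.24 in deleted hearts (interval -0.55 to 0.07; -0.33 without the library labelled VEGFR1del_Scramble replicate 3). The 2 wild-type groups came close without overlapping (10.27 and 10.26 were the nearest arrays), and the deleted ones overlapped.

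Probe ILMN_2721110 of Fgf1 showed wider differences. It read 7.45, 7.93 and 7.42 in WT_Scramble, 7.08 and 7.23 in WT_VEGFB, 7.39, 7.66 and 6.61 in VEGFR1del_Scramble, and 6.57, 6.76, 6.58 and 6.54 in VEGFR1del_VEGFB. The VEGF-B differences were -0.45 in wild-type hearts (interval -0.97 to 0.07) and -0.61 in deleted hearts (interval -1.04 to -0.17). With AAV-VEGF-B the deletion went with -0.54 (interval -1.04 to -0.05). In the deleted hearts the overlap came from the library labelled VEGFR1del_Scramble replicate 3 alone, which read 6.61 against 7.39 and 7.66 for the other two. Without it the difference in deleted hearts was -0.91 (interval -1.25 to -0.58) and was called over all probes.

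**Figure D2:**
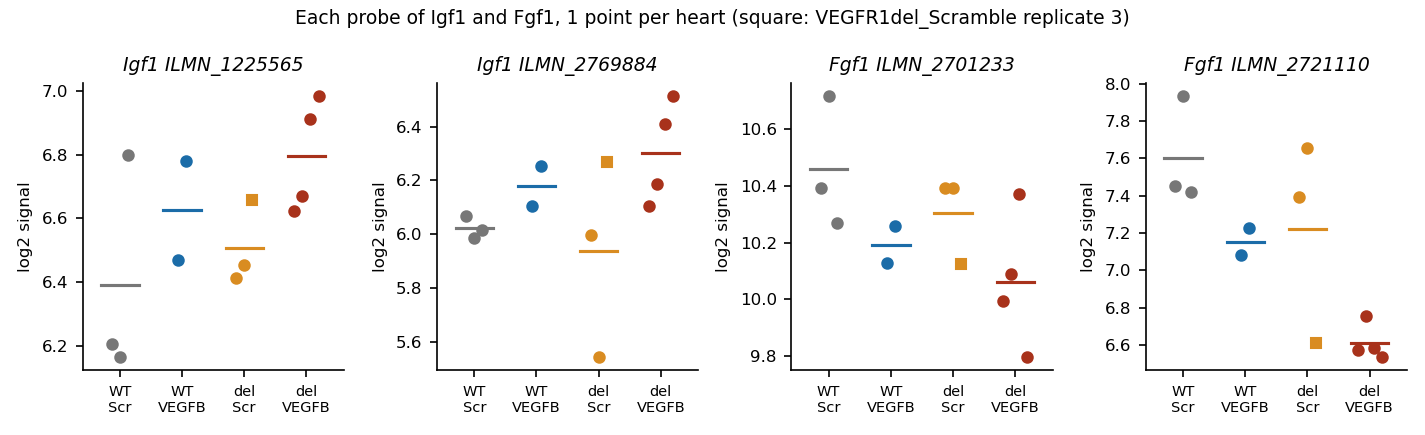
Log2 normalized signal (vertical axes, which do not start at 0) of each probe of Igf1 and Fgf1 in each heart by group, with group means as bars and the library labelled VEGFR1del_Scramble replicate 3 as a square. Fgf1 probe ILMN_2721110 is lowest in VEGFR1del_VEGFB (6.54 to 6.76), and the Igf1 probes overlap between the deleted groups.

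Kitl encodes the ligand of the receptor KIT. None of its 3 probes was detected on any array, with signals of 4.23 to 4.74, and it was not above background in these hearts.

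In the fit over all genes, 3 of the 7 measured members were called with VEGF-B in wild-type hearts, 2 higher and 1 lower, where 1.99% of all genes tested were called, 1.75% higher and 0.246% lower. In deleted hearts 1 of 7 was called, higher, where 4.61% of all genes were called and 2.82% were higher (401 of 656 calls, and 1007 of 1050 with median scaling). With the deletion under AAV-Scramble 0 of 7 were called by limma, where 0.0562% of all genes were and 1617 genes had an unadjusted p under 0.05. Under AAV-VEGF-B and in the interaction the percentage called was 0, and 1572 and 718 genes had an unadjusted p under 0.05. Since the members were selected on these contrasts, nothing is read from their counts.

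The 2 groups compared did not overlap for 4 members with VEGF-B in wild-type hearts (33.9% of all genes), 2 in deleted hearts (17.8%), 3 with the deletion under AAV-Scramble (15.2%) and 1 under AAV-VEGF-B (22.1%). The members' median differences were 0.24, 0.07, 0.12 and 0.17 in that order, and those of all genes -0.02, -0.01, -0.01 and 0.00. The 2 VEGF-B comparisons have no arrays in common, and each deletion comparison shares arrays with both of them.

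**Figure D3:**
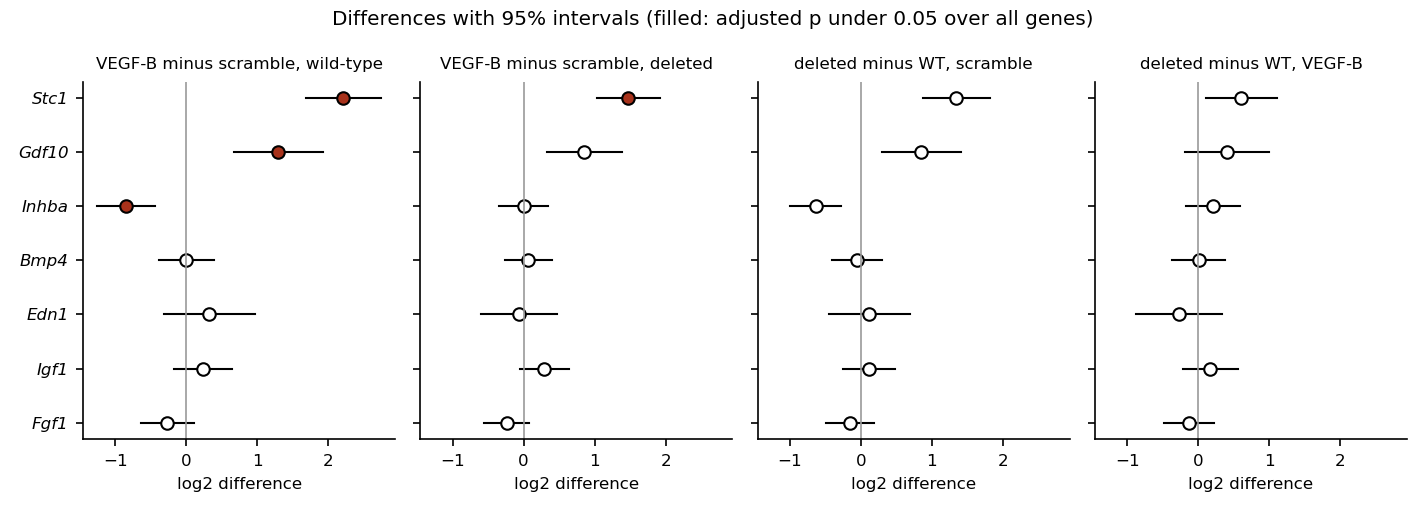
Log2 differences (horizontal axes) of the 7 measured members in each of the 4 comparisons, with 95% intervals from the limma fit as lines; filled points have an adjusted p under 0.05 over all genes. Stc1 lies above 0 in all 4 panels (0.61 to 2.21), and Bmp4 lies within 0.07 of 0.

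Levels in whole heart RNA depend on which cells it came from, and a change in the number of cells of a type and in RNA per cell cannot be told apart. The hearts read as heart: the mean log2 signal of 11 cardiomyocyte markers was 13.39 to 13.57 on all arrays. Of 20 measured endothelial markers, 10 were called higher with VEGF-B in wild-type hearts and 13 in deleted hearts (16 without the library labelled VEGFR1del_Scramble replicate 3), with median differences of 0.67 and 0.52 (0.64 without that library), and the medians with the deletion were 0.50 under AAV-Scramble (0.42 without it) and 0.33 under AAV-VEGF-B. Their mean log2 signal ran from 9.20 to 9.26 in WT_Scramble, 9.52 to 9.91 in VEGFR1del_Scramble, 9.78 to 9.86 in WT_VEGFB and 10.09 to 10.27 in VEGFR1del_VEGFB.

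Stc1 and Gdf10 had their groups in that same order. Relative to the endothelial mean of the same array, Stc1 was -3.73 to -3.66 in WT_Scramble and -2.29 and -1.87 in WT_VEGFB. Gdf10 was -3.38 to -2.45 in WT_Scramble and -2.22 and -2.13 in WT_VEGFB. In deleted hearts Gdf10 relative to that mean overlapped between the viruses, at -2.69 to -2.25 and -2.67 to -1.85.

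**Figure D4:**
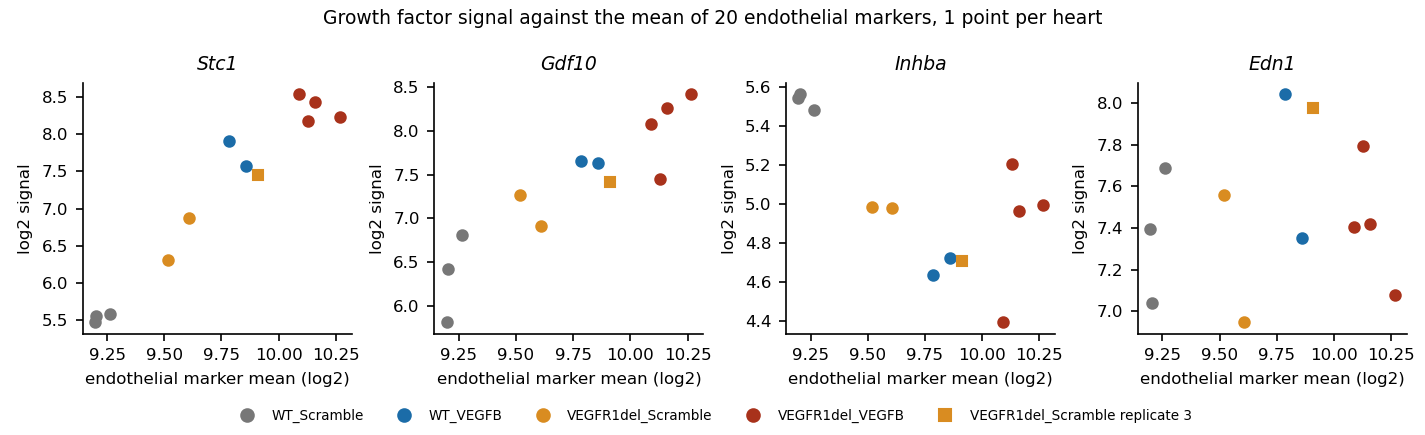
Log2 normalized signal of Stc1, Gdf10, Inhba and Edn1 (vertical axes, which do not start at 0) against the mean log2 signal of 20 endothelial markers (horizontal axes), 1 point per heart coloured by group, with the library labelled VEGFR1del_Scramble replicate 3 as a square. The Stc1 points climb with the marker mean from 5.46 to 8.54, the Edn1 points show no order, and the square lies beside the WT_VEGFB points for Stc1 and Inhba.

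Pericyte markers moved too: 6 of 9 were called higher with VEGF-B in wild-type and 3 in deleted hearts (4 without the library labelled VEGFR1del_Scramble replicate 3), with median differences of 0.70 and 0.36. Markers of fibroblasts, cells known to make IGF-1, had medians of -0.12 and 0.08 over 12 genes. Of 3 neutrophil markers 2 were called higher in deleted hearts (median 1.36). Their mean log2 signal was 4.82 to 5.17 in VEGFR1del_Scramble and 5.70 to 6.39 in VEGFR1del_VEGFB. In wild-type hearts that mean was 4.67 to 5.17 with AAV-Scramble and 5.38 to 5.88 with AAV-VEGF-B. None of 7 adipocyte markers was measured. The part of these cell types in the members' differences, or in those of the receptors and partners below, was not tested.

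The receptors and partners of the factors were not members, and their differences are given with the limma test over all genes. Their lists too were compiled with earlier results of these data known, so the counts below describe these arrays and are no independent evidence of a direction. Of 166 such genes listed, 93 were measured; 10 rose with VEGF-B in wild-type hearts, and in deleted hearts 8 rose and 1 fell. The deletion raised 1, Esm1, under AAV-Scramble, and under AAV-VEGF-B limma called 0, with 16 at an unadjusted p under 0.05. Their median differences were 0.06, 0.11, 0.11 and 0.11, in the order used above.

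In the endothelin system 1 of 4 measured genes rose, the receptor Ednrb, which on endothelial cells clears endothelin-1 and releases nitric oxide. It rose with VEGF-B in wild-type hearts, from 9.25, 9.16 and 8.94 to 10.36 and 10.46 (difference 1.29, SE 0.28, limma adjusted p = 0.0349), or 2.45-fold. In deleted hearts it was 9.46, 9.71 and 10.74 with AAV-Scramble and 10.50, 10.55, 10.47 and 10.93 with AAV-VEGF-B (0.64, adjusted p = 0.142). The value of 10.74 is that of the library labelled VEGFR1del_Scramble replicate 3, and without it the difference was 1.03 and passed (adjusted p = 0.00357). Its other probes were tested by limma over all probes. ILMN_2917471 gave 1.06 in wild-type (adjusted p = 0.0552) and 0.42 in deleted hearts (adjusted p = 0.302). Without that library it gave 1.06 (adjusted p = 0.00318) and 0.77 (adjusted p = 0.00858). ILMN_2717765, near the background with a WT_Scramble mean of 4.41, gave 0.15 in wild-type hearts. In deleted hearts it gave 0.56 (adjusted p = 0.0208, and 0.0225 without that library).

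**Figure D5:**
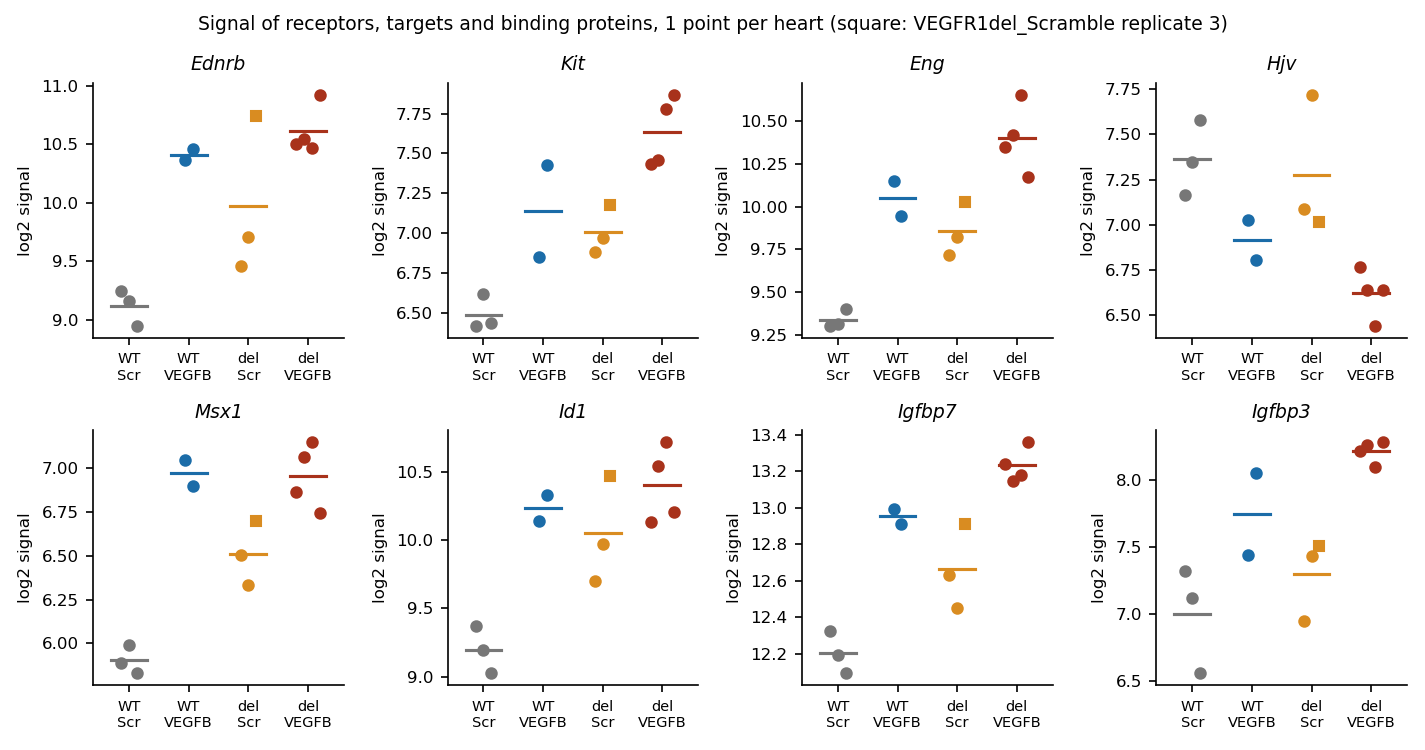
Log2 normalized signal (vertical axes, which do not start at 0) of the receptors Ednrb and Kit, the coreceptors Eng and Hjv, the BMP targets Msx1 and Id1 and the IGF-binding proteins Igfbp7 and Igfbp3 in each heart by group, with group means as bars. Both WT_VEGFB points lie above the 3 WT_Scramble points in every panel but that of Hjv, and the square of Ednrb (10.74) lies with the VEGF-B groups.

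Of 14 measured receptors and coreceptors of the bone morphogenetic proteins and activins, Eng rose with VEGF-B in both genotypes and Hjv fell in deleted hearts. Endoglin, the product of Eng, is an endothelial coreceptor for BMP9 and BMP10; it rose by 0.71 in wild-type (SE 0.14, limma adjusted p = 0.0268) and 0.55 in deleted hearts (SE 0.12, adjusted p = 0.0271; 0.63 without the library labelled VEGFR1del_Scramble replicate 3). Hemojuvelin, the product of Hjv, is a coreceptor known from iron regulation and muscle. Hjv fell by 0.65 in deleted hearts (SE 0.16, limma adjusted p = 0.0410, and -0.79 without that library). It differed by -0.45 in wild-type hearts (adjusted p = 0.290). Its other probe, ILMN_2688092, passed in neither genotype by limma over all probes. That probe gave -0.62 in deleted hearts (adjusted p = 0.0730) and -0.01 in wild-type hearts (adjusted p = 0.991). With all 12 arrays none of the kinase receptors measured in that list passed: Bmpr1a differed by -0.17 and -0.19, Bmpr2 by -0.02 and 0.02, Acvrl1 by 0.21 and 0.20, and Acvr2b by 0.12 and 0.14 in wild-type and deleted hearts. Without that library these 4 differed by -0.30, 0.02, 0.39 and 0.11 in deleted hearts and did not pass, but Tgfbr2, the type II receptor of TGF-beta, did (0.50, limma adjusted p = 0.0208, against 0.37 and adjusted p = 0.0811 with it). Acvr2a, a receptor of activins, was detected on 4 arrays, 2 of WT_VEGFB and 2 of VEGFR1del_VEGFB, and on none with AAV-Scramble. It passed the filter only through the AAV-VEGF-B arrays, so its difference with VEGF-B is no test. Its measured means were 5.00 in WT_VEGFB and 4.52 in WT_Scramble, and it was not called.

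Targets of BMP signalling were higher in WT_VEGFB than in WT_Scramble for all 8 measured genes of that list (median 0.64), and 3 of the 8 passed. The 20 endothelial markers had a median of 0.67 in the same comparison and 0.52 in deleted hearts. The part of endothelial cells in the differences of these targets was not tested. Id1, a transcriptional inhibitor induced by SMAD1 and SMAD5, rose by 1.04 (SE 0.22, limma adjusted p = 0.0304). Msx1, a homeobox gene, rose by 1.07 (SE 0.14, adjusted p = 0.00838) from 5.83 to 5.99 in WT_Scramble to 7.05 and 6.90. Hey1, a target shared with Notch, rose by 1.52 (adjusted p = 0.0145). In deleted hearts 0 of 8 passed in limma and 4 had an unadjusted p under 0.05, with a median of 0.33, and Id1 differed by 0.35 (adjusted p = 0.303), Msx1 by 0.44 (adjusted p = 0.0548) and Hey1 by 0.61 (adjusted p = 0.0984). Without the library labelled VEGFR1del_Scramble replicate 3, Msx1 (0.54) and Hey1 (0.79) passed there and Id1 (0.56) did not. Of 7 measured inhibitors of these ligands, 0 passed by limma with all 12 arrays, and 2 in wild-type and 1 in deleted hearts had an unadjusted p under 0.05. Without that library Nbl1, a BMP-binding inhibitor, passed in deleted hearts (0.50). Of 6 other ligands of the superfamily 0 passed with all 12 arrays, and 1 and 2 did so unadjusted. Without that library Tgfb1, the gene of TGF-beta 1, passed in wild-type hearts (0.50, limma adjusted p = 0.0377, against 0.50 and 0.1186 with it). The wild-type comparison does not use that library, which enters it only through the normalization and the shared estimate of the spread. In deleted hearts Tgfb1 passed too (0.49, limma adjusted p = 0.0212, against 0.33 and 0.1585 with it).

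In the IGF axis 1 of 13 measured genes passed in wild-type hearts and 2 in deleted hearts. Igfbp7, a matrix-bound protein of vessels, rose by 0.75 in wild-type (SE 0.14, limma adjusted p = 0.0190) and 0.57 in deleted hearts (SE 0.12, adjusted p = 0.0209). Igfbp3, the main carrier of IGF-1 in plasma, rose by 0.92 in deleted hearts (SE 0.19, adjusted p = 0.0238) and differed by 0.75 in wild-type hearts (adjusted p = 0.124), where its other probe passed (0.93, adjusted p = 0.0450 over all probes). Without the library labelled VEGFR1del_Scramble replicate 3 the differences in deleted hearts were 0.69 for Igfbp7 and 1.02 for Igfbp3. Igf1r, the receptor, differed by 0.04 and 0.23 (0.14 in deleted hearts without that library).

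Kit, the receptor for the Kitl product, rose in deleted hearts with VEGF-B, by 0.63 (SE 0.15, limma adjusted p = 0.0373), from 6.88, 6.97 and 7.18 to 7.44, 7.46, 7.78 and 7.87 (0.71 without the library labelled VEGFR1del_Scramble replicate 3). In wild-type hearts it was 6.41, 6.62 and 6.43 with AAV-Scramble and 6.85 and 7.43 with AAV-VEGF-B (0.65, adjusted p = 0.0921). The receptor was thus measured on all 12 arrays where its ligand was not detected. Of 14 measured genes of the FGF axis 0 passed by limma with all 12 arrays, and 2 in wild-type and 3 in deleted hearts had an unadjusted p under 0.05. Without that library Dusp6, a phosphatase induced by FGF signalling, passed in deleted hearts (0.77, limma adjusted p = 0.0326, against 0.58 and adjusted p = 0.0984 with it). Of Stc2, Pappa and Pappa2, the related hormone and the proteases that stanniocalcins bind, 2 were measured and 0 passed, and 0 and 1 did so unadjusted.

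A list of 22 other measured genes held factors that endothelium can secrete and Nos3, whose product is no secreted factor but the enzyme that makes endothelial nitric oxide. Of these 22, 4 rose with VEGF-B in each genotype: the secreted Esm1, Pdgfb and Egfl7, and Nos3. Without the library labelled VEGFR1del_Scramble replicate 3, Adm also passed in wild-type hearts (0.61, limma adjusted p = 0.0273, against 0.61 and 0.0550 with it). In deleted hearts Ccn2 then rose (0.94, limma adjusted p = 0.0276, against 0.70 and 0.0975 with it). Csf1 then fell there (-0.46, limma adjusted p = 0.0402, against -0.27 and 0.322 with it). Egfl7, an endothelial matrix protein, rose by 0.78 in wild-type (limma adjusted p = 0.0173) and 0.51 in deleted hearts (adjusted p = 0.0290; 0.65 without the library labelled VEGFR1del_Scramble replicate 3). Esm1 (2.82 and 1.60) kept its call with each of the 12 arrays left out. Of the 10 calls in wild-type hearts and 9 in deleted hearts among all the receptors and partners, 9 and 8 were lost with at least 1 array left out, and without the library labelled VEGFR1del_Scramble replicate 3 the counts were 12 and 18.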

How the data were processed

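Before normalization the authors deposited, for every array, a detection p-value beside each probe signal, which is an intensity on a linear scale (both per the file headers); the authors' series table gives log2 values, which fell into 3 sets when set against the signals. The preparation was biotin-labelled cRNA, per the labels' protocols; software and array build are not given in the sources used here.

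Signals were background corrected and quantile normalized with neqc of limma 3.58.1 in R 4.3.3 (background from the detection p, offset 16). Probes with a detection p under 0.05 on at least 2 arrays entered (20312 of 45281). A gene was its probe with the highest mean (14240 genes, 11009 with a symbol). One limma fit with a mean per group gave each comparison, two-sided, adjusted by Benjamini-Hochberg over all genes and called at an adjusted p under 0.05. The script was tested on simulated data. The members and gene lists were chosen with earlier results of these data known. Genes named are the members, their main receptors, up to 4 called genes of each list per comparison with the smallest p, and Flt1 and Vegfb. Tgfbr2, Nbl1, Tgfb1, Dusp6, Adm, Ccn2 and Csf1 were named after their values were seen. They were named because they passed without the library labelled VEGFR1del_Scramble replicate 3. No probe carried the symbol of the endothelin receptor Ednra in the annotation used, and Fgfr1 did not pass the filter. Bead signals carry no counts, so the number of arrays limits the precision. Figures were drawn with matplotlib. Alternatives tried are given at the end.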

Additional observations from a re-analysis of the deposited data

How the results depend on the processing

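Under 12 other processing settings and with each array left out, 0 of the called member differences changed sign. Of 868 values of member differences, which also count the threshold of 0.10, 25 moved by more than the SD between replicates. Some settings, such as that threshold and the trended robust fit, cannot change a difference, so this share is no measure of stability. Without background correction, with VEGF-B, Stc1 differed by 1.20 in wild-type and 1.01 in deleted hearts, Gdf10 by 0.77 and Inhba by -0.27 in wild-type hearts. On the authors' deposited values these were 1.22, 1.11, 0.81 and -0.22, and with an offset of 50 Stc1 was 1.63 and Inhba -0.43 in wild-type hearts. In wild-type hearts, where 3 members were called, 1 was without the filter on dim probes; of receptors and partners, 17 in place of 10 were called with median scaling. In deleted hearts 2 members in place of 1 were called without background correction, with an offset of 50, on the authors' values and at an adjusted p under 0.10, and 3 with median scaling; receptors and partners, 9 in the reported fit, numbered 14, 14, 22, 18 and 18 in that order, and 2 with only the 2 groups in the fit. With the deletion under AAV-Scramble 1 member in place of 0, Stc1, was called without background correction, with an offset of 50, with median scaling, with probes detected on every array of 1 group, with the mean over probes, with a trended robust fit and at an adjusted p under 0.10. Receptors and partners, 1 in the reported fit, were there 4 without background correction, 5 with an offset of 50, 6 with the trended robust fit, 4 on the authors' values and 7 at an adjusted p under 0.10. Under AAV-VEGF-B 1 in place of 0 was called without background correction and 1 on the authors' values. With median scaling the median of all genes was 0.12 with VEGF-B in either genotype, against -0.02 and -0.01 as reported. The count of all genes called, 284, 656, 8, 0 and 0, ran over these settings from 175 to 553, 176 to 1770, 1 to 194, 0 to 93 and 0 to 0. With each array left out, members called were 0 to 3 in wild-type hearts, 1 to 2 in deleted hearts and 0 to 1 with the deletion under AAV-Scramble, receptors and partners 1 to 12, 1 to 18 and 1 to 1, and all genes 4 to 397, 28 to 1031 and 4 to 21; with 1 array of WT_VEGFB left, it is assumed to vary like the other groups. Replicate numbers do not pair the samples, since over 15 same-numbered pairs the correlation of deviations was -0.0398 to 0.115, over 0.1 in 1. With the replicate number as a block, 2 members (Stc1, 1.53, and Gdf10, 1.06) and 4 receptors and partners were called in deleted hearts, and 370 of all genes, and the counts of members in the other comparisons were as reported. With the authors' sets as a random block (correlation 0.0092), members called were as reported. That block cannot remove a difference between sets from the VEGF-B comparisons, where groups and sets cannot be told apart. Dim probes are limited by the background: Inhba lay near it outside WT_Scramble.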
